A study of Mus musculus with 6 samples.

Results

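The odorant receptors (ORs) *Olfr987* to *Olfr1262* form a large class II OR cluster on mouse chromosome 2. Members were taken by name, as every *Olfr* gene without a pseudogene suffix whose number falls in that range. This rule used no measured value, but the members were chosen with earlier results of these data known. This gave 199 of the 1116 OR genes in the deposited tables. All 199 lie between chr2:85330967-90003322 (GRCm38, RefSeq), a span of 4.67 Mb with a median of 19.3 kb between the starts of neighbours. Of the 197 members with a GENCODE entry, 70 are on the + strand and 127 on the - strand.

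Each olfactory sensory neuron (OSN) transcribes a single OR allele from a very large repertoire, and all other OR genes stay silent under heterochromatin that carries H3K9me3 and HP1 proteins. OSNs that choose a given OR are scattered within a restricted dorsoventral band, or zone, of the main olfactory epithelium (MOE). Dorsal OSNs express *Nqo1* and *Acsm4*, and ventral OSNs express *Ncam2* and *Nrp2*.

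Single-cell RNA-seq was available from 6 libraries of dissociated MOE. The 2 swap libraries carried Cbx\*/\* and a Cre allele. In this line Cre replaces HP1β (*Cbx1*) with HP1α (*Cbx5*) at the *Cbx1* locus, under the *Cbx1* promoter. Control replicate 1 was wild type at *Cbx1* and carried the Cre allele, and control replicate 2 was labelled Cbx\*/\* without Cre, so the 2 controls differ in genotype. The *tetOP2* library carried gg8-tTA and tetOP2iresGFP, a transgene that drives the OR *Olfr17* (P2) in OSNs from the immature stage. The *gg8tTA* library carried gg8-tTA alone. Ages were not given in the labels. In mature OSNs *Cbx1* had 9 and 43 UMIs (unique molecules) in the swap libraries and 1025 and 2666 UMIs in the control libraries. *Cbx5* was at 78.7 and 97.3 CPM (UMIs scaled to a fixed library total) in the swap libraries and at 19.6 and 40.7 CPM in the control libraries. The libraries held 32005196 to 63277934 UMIs over 2563 to 7703 barcodes. Control replicate 2 stood apart, with 57.5% of its barcodes passing the filter on UMIs and genes. *Xist* was at 1274 CPM in swap replicate 1 and below 1 CPM in the other swap and control libraries, so the swap pair mixed the sexes and the control pair did not. The methods call the replicates biological, without saying how many animals gave each library.

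The coding starts of 6 members named in the results are shown for reference, and the counts of choice do not use these bases. *Olfr1029*, *Olfr1030* and *Olfr1031* are neighbours detected in the same cells, and *Olfr1178*, *Olfr1196* and *Olfr1211* were chosen often in control OSNs and by no swap OSN. Each run gives the first 60 coding bases, 5′ to 3′ on the coding strand, in GRCm38. Capitals mark the ATG and the letters GAATT, which fall at the start of the conserved amino-terminal stretch of many ORs. GAATT occurred within these 60 bases in 89 of 197 members (45.2%). 
Olfr1029, chr2:85975245-85975304, + strand: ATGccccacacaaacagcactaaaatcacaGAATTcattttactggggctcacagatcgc
Olfr1030, chr2:85983842-85983901, + strand: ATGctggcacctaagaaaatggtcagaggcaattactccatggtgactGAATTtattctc
Olfr1031, chr2:85991819-85991878, + strand: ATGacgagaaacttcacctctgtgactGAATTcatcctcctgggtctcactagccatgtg
Olfr1178, chr2:88391249-88391308, + strand: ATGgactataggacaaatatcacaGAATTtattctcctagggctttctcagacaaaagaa
Olfr1196, chr2:88701268-88701327, - strand: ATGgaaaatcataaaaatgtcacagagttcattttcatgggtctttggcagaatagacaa
Olfr1211, chr2:88930254-88930313, - strand: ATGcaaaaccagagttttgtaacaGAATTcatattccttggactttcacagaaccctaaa

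The 3 neighbours were about as alike in sequence as other adjacent members. *Olfr1029* and *Olfr1030* were 73.5% identical over their coding sequences, and *Olfr1030* and *Olfr1031* 73.3%. Over 194 pairs of neighbouring members the median identity was 72.3% (61.9% to 98.7%). The members' coding sequences ran from 909 to 1038 bases.

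The cluster was chosen by a smaller share of OSNs in both swap libraries than in either control library. Cells with 10 or more *Omp* UMIs whose *Omp* count exceeded *Gap43* were taken as mature OSNs, and a cell's chosen OR was the OR with the most UMIs, at least 3. A cluster receptor was chosen by 71 of 647 cells in swap replicate 1 (10.97%) and by 101 of 934 in swap replicate 2 (10.81%). In control replicates 1 and 2 it was chosen by 161 of 947 cells (17%) and 208 of 1182 cells (17.6%). Both swap libraries lay below both control libraries. Swap averaged 10.9% ± 0.113 and control 17.3% ± 0.422 (SD, n = 2 each), a difference of -6.41 percentage points (-6.03 within replicate number 1 and -6.78 within number 2). The two-sided exact permutation test gave p = 0.33, the smallest that 2 against 2 libraries allow. In cells gated on sustentacular markers, taken as a background for ORs, a cluster receptor reached 3 UMIs in 0.251% to 3.97% of cells, against 7.62% to 16.2% of mature OSNs. Of these gated cells, 4.02% to 16.2% held a UMI of the member *Olfr1033*, so they were not free of cluster RNA. Median depth was 12060 to 19914 UMIs in the gated cells and 11303 to 12939 UMIs in mature OSNs.

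**Figure D1:**
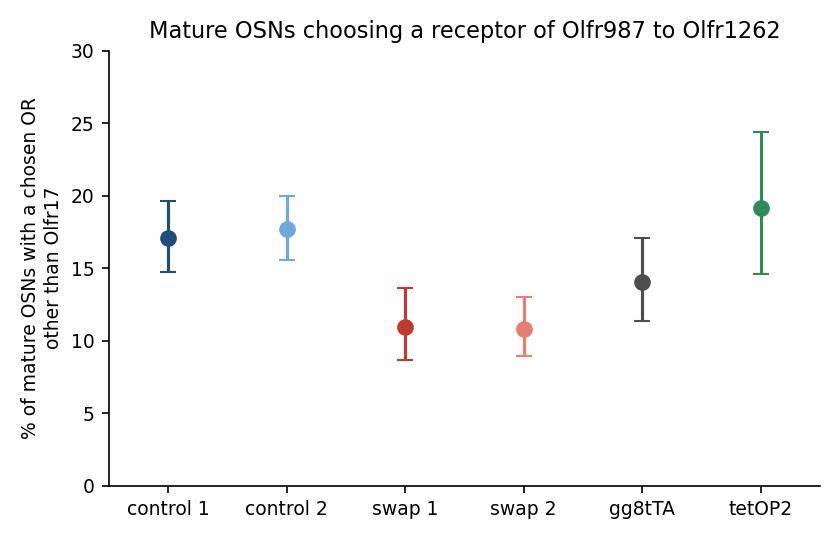
Share of mature OSNs with a chosen OR other than *Olfr17* that chose a cluster receptor, in percent, for each library, with exact binomial 95% intervals that cover counting error only. On this denominator the swap libraries sit at 10.97% and 10.84%, below the control libraries at 17.1% and 17.7%, with *gg8tTA* at 14% and *tetOP2* at 19.2%.

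Few receptors were chosen by many cells. Of the 199 members, 191 had a UMI in some cell, 173 in a mature OSN, and 159 were chosen in at least 1 library. The other 40 members were never chosen. In control OSNs 137 members were chosen, 43 of them by 1 cell, and in swap OSNs 64. Of these, 81 were chosen in control only, 8 in swap only and 56 in both, from 369 control and 172 swap cells. The 81 are 59.1% of the members chosen in control, beside 252 of 627 ORs outside the cluster (40.2%), and the unequal numbers of cells bear on both shares.

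*Olfr1247* was the member chosen most in control, by 7 and 4 cells, and was chosen by 1 and 0 swap cells. *Olfr1196* was chosen by 5 and 5 control cells and by no swap cell. *Olfr1211* was chosen by 3 and 6 control cells, *Olfr1213* by 5 and 4, and *Olfr1178* by 5 and 3, and none of the 3 was chosen by a swap cell. With 3 cells taken as the limit for a count of 0, the 1581 cells pooled over both swap libraries allow a share of up to about 0.19%. This limit covers counting error only, not the spread between libraries, and is not a Clopper-Pearson limit. Control shares were 0.47% for *Olfr1196*, 0.423% for *Olfr1211* and *Olfr1213* and 0.376% for *Olfr1178*. These rest on 8 to 10 control cells each, and the receptors were named for their high control counts.

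*Olfr1030* did not follow that order. It was chosen by 3 and 5 control cells and by 4 and 5 swap cells. *Olfr1028*, close to *Olfr1030*, was chosen by 2 and 4 control and by 1 and 4 swap cells. Single libraries could hold all cells of a receptor. *Olfr1260* was chosen by 6 and 0 control cells, *Olfr1087* by 5 and 0, and *Olfr1110* by 5 and 0 control and 0 and 6 swap cells. *Olfr1225*, in contrast, was chosen by 1 and 5 swap cells and by no control cell.

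**Figure D2:**
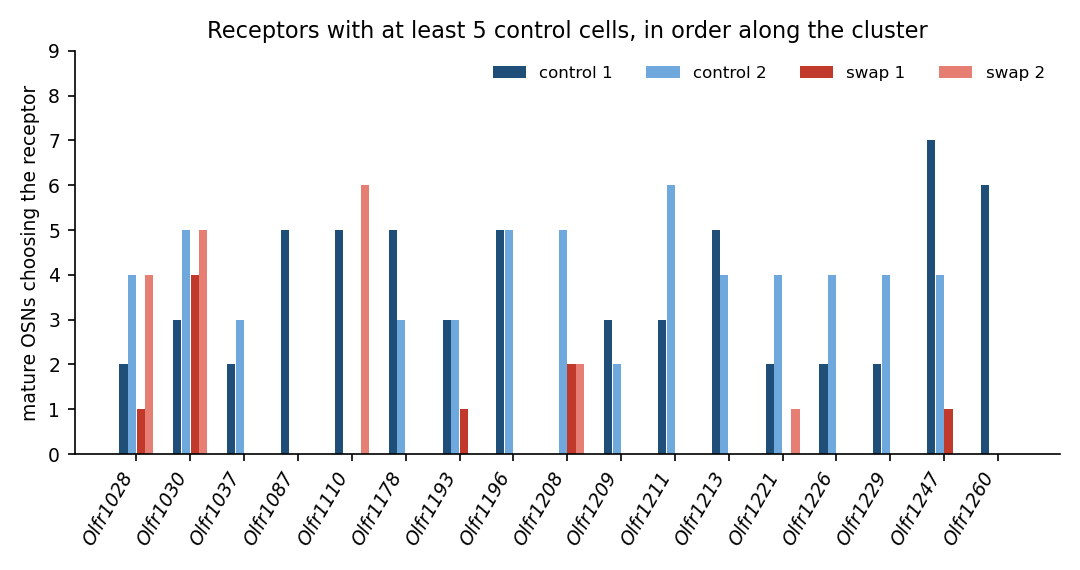
Mature OSNs choosing each of the 17 receptors with at least 5 control cells, as numbers of cells in each swap and control library (bars), in order along the cluster. *Olfr1196*, *Olfr1211*, *Olfr1213* and *Olfr1178* have cells in both control libraries and in neither swap library, while *Olfr1030* has 8 control and 9 swap cells.

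Of the 17 members with at least 5 control cells, 10 had no swap cell, beside 25 of 103 ORs outside the cluster (24.3%) and 29.2% of all 120 such ORs. The members chosen most in control (the 10 highest) went from 79 control cells to 17 swap cells. Both counts start from high control values and are given as a description.

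Whether single receptors were called depended on the test. For UMIs summed over mature OSNs, the edgeR quasi-likelihood test, adjusted by Benjamini-Hochberg, called 0 of 13176 genes (0%) at adjusted p under 0.05 and an absolute log2 fold change over 0.58. DESeq2 on the same sums called 140 of 15254 genes (0.918%). It called 26 of 145 members tested, 24 lower and 2 higher, beside 94 of 693 other ORs (13.6%). Of these, 12 members and 68 other ORs got no adjusted p. The DESeq2 filter on summed UMIs let in members with counts in 1 group only, which could come out in 1 direction only. Its counts of members are therefore a description. The number of members that edgeR called changed on leaving out a control library, which leaves that group with 1. Of the 199 members, 91 passed the filter on low counts. At an unadjusted p under 0.05, 31 were lower and 5 higher in swap, against 1.29% and 0.789% of all genes and 21.3% and 8.73% of the 573 ORs tested. The filter can keep a member with counts in 1 group only. *Olfr1140*, *Olfr1173* and *Olfr1231*, among the 31, had 0 UMIs in both swap libraries and 1 to 3 choosing cells per control library. Control counts alone brought these into the test, and swap counts alone *Olfr1168* and *Olfr1225*, so both numbers are a description. *Olfr1213* had 726 and 1010 UMIs in control and 0 in both swap libraries (adjusted p = 0.179). *Olfr1046* had 265 and 241 UMIs in control and 564 and 1152 in swap, a log2 fold change of 2.09 ± 0.38 (SE; adjusted p = 0.427). Only 1 and 1 control cells and 2 and 3 swap cells chose *Olfr1046*. *Olfr1225* had 99 and 1005 UMIs in swap and 0 in both control libraries (adjusted p = 0.594). *Olfr1168* had 33 and 89 UMIs in swap and 0 in control (adjusted p = 0.224), and was chosen by 1 cell in each swap library.

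Counted by cells, no member was called. Of 131 ORs chosen by at least 8 cells, edgeR called 6 (4.58%), and 0 of the 16 members tested. Unadjusted p-values under 0.05 were found for *Olfr1178*, *Olfr1211*, *Olfr1213* and *Olfr1196*, all lower in swap, beside 9.92% of the 131 ORs lower at that level, with adjusted p from 0.082 to 0.120. Control cells alone brought these receptors into the test, so they could only come out lower, and their p-values are a description. Of the 16 members, 5 were lower and 11 higher in swap, beside 48 lower and 83 higher of the 131 ORs. DESeq2 called 0 of the members.

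The difference was uneven along the chromosome. Cells were summed over stretches of 25 receptor numbers, a test chosen after the values had been seen. *Olfr1187* to *Olfr1211* (chr2:88559451-88934526) were chosen by 2.75% and 2.62% of control OSNs and by 0.618% and 0.214% of swap OSNs, a log2 fold change of -2.77 ± 0.57 (SE; edgeR adjusted p = 0.000203). *Olfr1162* to *Olfr1186* fell from 1.51% to 0.369% on average, a log2 fold change of -1.99 ± 0.45 (adjusted p = 0.00519). *Olfr1212* to *Olfr1236* fell from 2.71% to 1.05%, a log2 fold change of -1.35 ± 0.48 (adjusted p = 0.0438). The background was 8 of 62 stretches called over all ORs (12.9%), 5 of them lower (8.06%). This background includes the cluster's own stretches, and those named here are among the 5, so it is not independent of them. Both swap libraries lay below both control libraries in 27.4% of the 62.

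The other 8 stretches overlapped between the groups and were not called. With 3 stretches lower in both swap libraries and 8 not, the cluster stood near the 27.4% of stretches over all ORs. *Olfr1012* to *Olfr1036*, which hold *Olfr1030*, were at 2.19% in control and 2.42% in swap. *Olfr1237* to *Olfr1262*, at the distal end, were at 2.49% in control and 1.88% in swap. Leaving out 1 library, which leaves its group with 1, kept the direction of all 3 but not all calls. Without swap replicate 2, 0 were called, with log2 fold changes of -2.27, -2.09 and -1.55 from *Olfr1162*, *Olfr1187* and *Olfr1212* (adjusted p = 0.346 each). Without swap replicate 1 or control replicate 2, 1 was called, the stretch from *Olfr1187*.

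**Figure D3:**
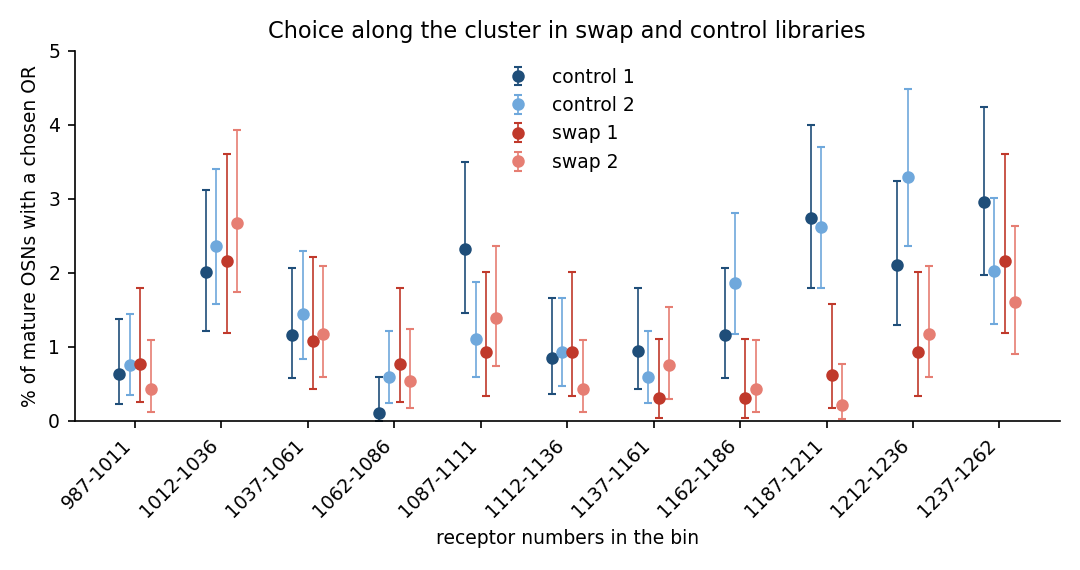
Share of mature OSNs choosing a receptor of each stretch of 25 receptor numbers, in percent, along the cluster. Points are single swap and control libraries and bars are exact binomial 95% intervals. Swap lies below control from *Olfr1162* to *Olfr1236*, where control means are 1.51% to 2.71% and swap means 0.369% to 1.05%. Over all ORs, both swap libraries lay below both control libraries in 27.4% of 62 stretches.

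Zonal markers of control cells varied along the cluster. In control replicates 1 and 2, *Nqo1* was at 1472 and 2331 CPM in cells choosing *Olfr1037* to *Olfr1061* and at 0 CPM in both for *Olfr1237* to *Olfr1262*. *Acsm4* was at 579 and 451 CPM in the former and at 14.6 and 5.41 CPM in the latter. *Ncam2* ran the other way, at 7.83 and 0 CPM against 149 and 92.0 CPM. *Nrp2*, a guidance receptor of ventral OSNs, was at 7.83 and 10.6 CPM against 126 and 59.5 CPM. *Cd55*, also a zonal gene, did not follow *Nqo1*, at 7.83 and 5.31 CPM against 114 and 179 CPM. *Nqo1* was not graded evenly, since it was at 611 to 779 CPM in cells choosing *Olfr1137* to *Olfr1186*, far along the cluster.

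A score per cell was taken as the mean z-score of *Ncam2*, *Nrp2* and *Nfib* minus that of *Nqo1*, *Acsm4* and *Robo2*, so higher is more ventral. Of the receptors with at least 5 control cells, the lowest scores were those of *Olfr1037* (-2.03), *Olfr1030* (-1.86), *Olfr1028* (-1.39), *Olfr1221* (0.02) and *Olfr1087* (0.55). *Olfr1221* and *Olfr1087* were above 0, the mean of control mature OSNs, and so not on the dorsal side. The most ventral were *Olfr1211* (1.76), *Olfr1178* (1.73), *Olfr1226* (1.55), *Olfr1193* (1.54) and *Olfr1229* (1.42). Across 17 receptors, which share libraries, the score was higher at more distal starts (Pearson's r = 0.795, Spearman's rho = 0.468). The 3 lowest, *Olfr1037*, *Olfr1030* and *Olfr1028*, start close together (chr2:85951065 to 86084730), and the other receptors scored from 0.02 to 1.76. The part of these 3 in r was not tested. Across 55 receptors with at least 3 cells r was 0.639. The order was not smooth, since *Olfr1176* scored -2.55 (4 cells) beside *Olfr1178* at 1.73. In *gg8tTA*, with 6 receptors, r was 0.167.

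**Figure D4:**
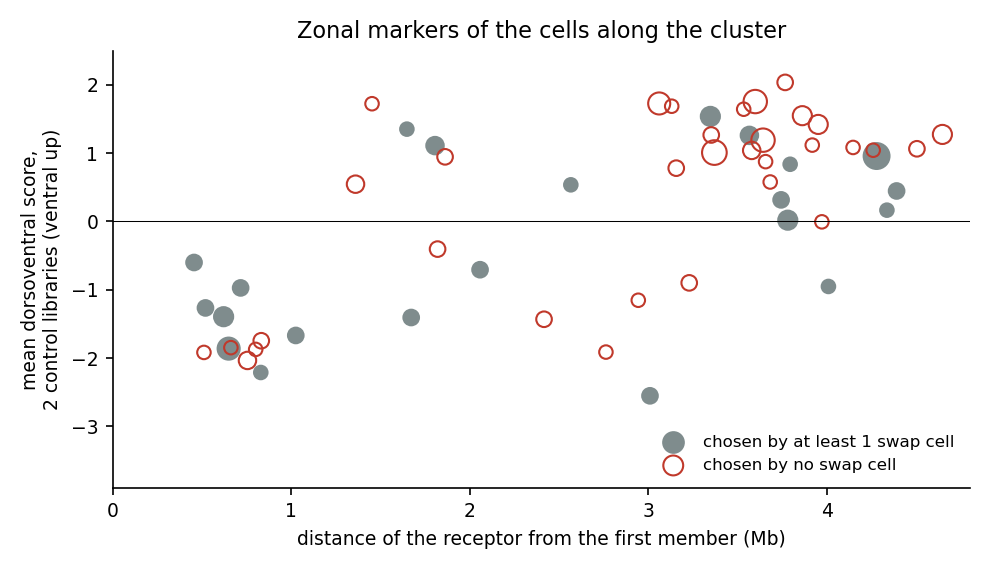
Mean dorsoventral score of control OSNs choosing each receptor (higher is more ventral) against distance from the first member in Mb, for receptors with at least 3 control cells. Point area follows the number of control cells and red outlines mark receptors with no swap cell. *Olfr1037* (-2.03) and *Olfr1030* (-1.86) lie low at the proximal side and *Olfr1211* (1.76) and *Olfr1178* (1.73) high further along. The lowest point, *Olfr1176* (-2.55, 4 control cells), also lies further along.

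The share of ventral receptors among cluster cells depended on how many cells placed a receptor. Receptors were placed by the control library of the other replicate number and *gg8tTA*, and the highest-scoring 1 in 3 were taken as ventral. With at least 3 cells to place a receptor, ventral receptors were chosen by 5 of 30 and 6 of 31 placed cells in swap and by 30 of 66 and 26 of 53 in control, a difference of -29.2 points between group means. With at least 5 cells the shares were 0 of 8 and 6 of 11 in swap and 13 of 36 and 8 of 19 in control, which overlapped (difference -11.8 points, exact permutation p = 1). A receptor not chosen in these control or *gg8tTA* libraries could not be placed, and 30 of 71 and 31 of 101 swap cluster cells entered the first count, so the shares are a description.

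The score of the cells themselves overlapped between the groups. Cluster cells averaged 0.18 and -0.17 in swap and 0.22 and 0.12 in control (exact permutation p = 0.667). Cells choosing other class II ORs averaged -0.01 and -0.07 in swap and 0.26 and 0.26 in control, which did not overlap (exact permutation p = 0.33). Within 6 libraries, cluster cells differed from other class II cells by -0.01 ± 0.13 (SD; exact sign-flip p = 0.938). For 12 receptors with at least 3 control and 2 swap cells, swap cells scored a median of 0.04 above control cells of the same receptor (-0.49 to 0.64), and 4 of 12 were lower. Scores of these 12 in control and swap correlated at r = 0.975.

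Both swap libraries held fewer different receptors in equal numbers of cells. In random draws of 71 cluster cells per library, 43 and 39.1 different members were found in swap and 50.3 and 54.3 in control. The groups did not overlap (41.1 ± 2.73 against 52.3 ± 2.84, SD, n = 2 each, exact permutation p = 0.33). Over all ORs, 332 and 408 different ORs were chosen in swap and 515 and 588 in control, from unequal numbers of cells. Without draws of equal size for ORs outside the cluster, the lower number cannot be called particular to the cluster.

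Cells that chose a cluster receptor expressed it at overlapping levels. After thinning each cell to 3000 UMIs, the median level of the chosen receptor was 19 and 24 UMIs in swap and 23 and 23.5 UMIs in control (exact permutation p = 1). Unthinned medians were 83 and 109 UMIs in swap and 86 and 110 in control. Against cells choosing another OR, cluster cells had 2.5 ± 1.84 more thinned UMIs of the chosen OR (SD, n = 6), higher in 6 of 6 libraries (exact sign-flip p = 0.031, the smallest possible). Medians were 25 against 21 in *tetOP2*, whose other cells included those choosing *Olfr17*, but 23.5 against 23 in *gg8tTA* and control replicate 2. Unthinned, *gg8tTA* was at 91.5 against 93, while cluster cells were higher in the other libraries.

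*Olfr1263* to *Olfr1318*, next to the cluster in number, and the class II receptors *Olfr832* to *Olfr986* on another chromosome were compared by ratio. The distance of *Olfr1263* to *Olfr1318* from the cluster was not measured. *Olfr1263* to *Olfr1318* were chosen by 2.02% of swap and 3.62% of control OSNs, and the log2 ratio of cluster cells to theirs was 0.17 higher in swap. *Olfr832* to *Olfr986* were chosen by 5.54% of swap and 5.75% of control OSNs, and the swap minus control difference of the log2 ratio was -0.62. Exact permutation gave p = 0.33 for both ratios.

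Some cells held RNA of the gene next to the chosen one. The pairs named here were picked after their values were seen. *Olfr1029* was detected in 16 of 17 cells choosing *Olfr1030*, with 1 to 21 UMIs, beside 4 of 4938 other cells (0.081%). *Olfr1031* was detected in 12 of the 17, beside 1 of 4934 other cells. The 3 genes lie on the + strand, with 362 bases between *Olfr1029* and *Olfr1030* and 2009 bases between *Olfr1030* and *Olfr1031* in GENCODE. *Olfr1042* was detected in 6 of 6 cells choosing *Olfr1043*, with 18 to 23 UMIs, 51 bases away. *Olfr1033* was detected in 6 of 7 cells choosing *Olfr1034*, but also in 6.77% of other cells.

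**Figure D5:**
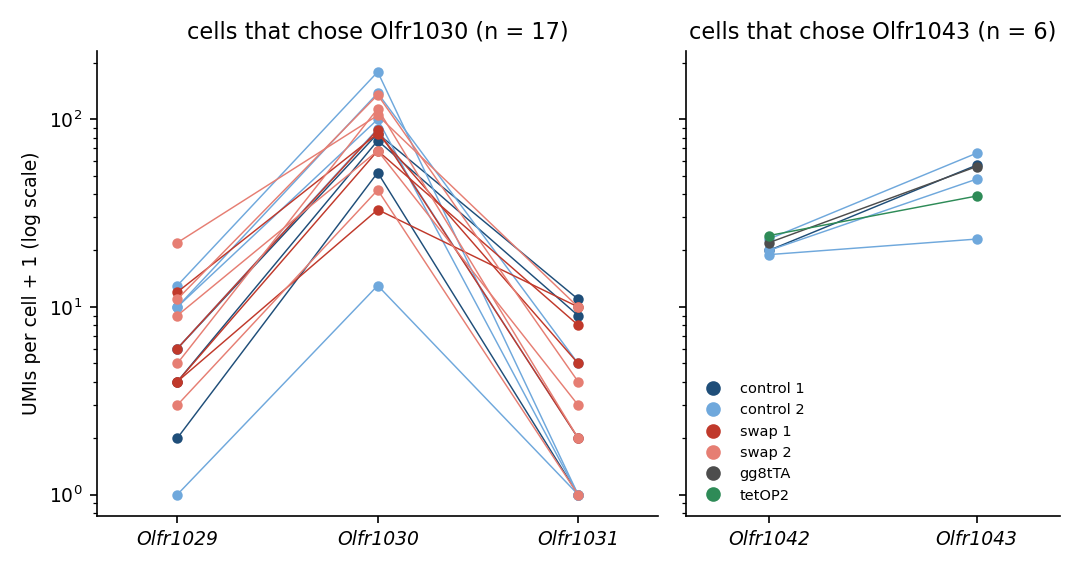
UMIs of the chosen receptor and of its neighbours in single mature OSNs choosing *Olfr1030* or *Olfr1043*, as UMIs + 1 on a log axis. Lines join the values of 1 cell and colours give its library. *Olfr1029* reaches 1 to 21 UMIs in 16 of 17 cells choosing *Olfr1030*, and *Olfr1042* 18 to 23 UMIs in 6 of 6 cells choosing *Olfr1043*.

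Cells choosing a cluster receptor held 2411 UMIs of ORs other than the chosen one and *Olfr17*, of which 29.9% were of other cluster members and 21.2% of the next member. Of the 720 member UMIs in 676 cluster cells, 70.8% belonged to the next member on either side and 26.1% to members more than 3 places away. Cells choosing *Olfr1030* or *Olfr1043* gave 292 of the 510 next-member UMIs, and without them the next member gave 51.3% of 425 UMIs. Cells choosing *Olfr1042* were kept in that count. Of these, 2 of 3 in swap replicate 2 held 93 UMIs of *Olfr1043*, and 0 of 3 in control replicate 2 held any. On the same strand lay 503 of 510 UMIs of next members, while 149 of 194 neighbouring pairs (76.8%) share a strand. UMIs and pairs are unlike units, since the few pairs named above gave most of the UMIs. The strand count was not taken without those cells, so it shows no general excess. Reads that run from one gene into the next, or that fit both, cannot be told apart from expression of both. Of the members, 42 shared at least 20% of their 25-base words with another OR.

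As a share of all ORs other than the chosen one, cluster receptors gave 42.3%, 20%, 29.7%, 40.1%, 46.4% and 21.5% of UMIs in cluster cells of *tetOP2*, *gg8tTA*, swap 1, control 1, swap 2 and control 2. In cells choosing another OR the shares were 39.2%, 10.8%, 9.98%, 14.1%, 6.68% and 12.8%. The mean difference was 17.8 points, in the same direction in 6 of 6 libraries (exact sign-flip p = 0.031, the smallest possible). Without cells choosing *Olfr1030* or *Olfr1043*, but with those choosing *Olfr1042* kept, it was 9.79 points (exact sign-flip p = 0.156).

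In *tetOP2*, *Olfr17* was the chosen OR of 381 of 647 mature OSNs (58.9%). Of the 266 cells choosing another OR, 51 chose a cluster receptor (19.2%, 95% Clopper-Pearson interval 14.6% to 24.4%). In *gg8tTA*, 84 of 598 did (14%, 11.4% to 17.1%). With 1 library each there is no test, and the intervals overlap. With *Olfr17* cells kept in the denominator the shares were 7.88% and 14%. *Olfr1178* and *Olfr1209* were each chosen by 2 *tetOP2* and 3 *gg8tTA* cells, the most of any member. Members chosen numbered 39 in *tetOP2* and 63 in *gg8tTA*, of 218 and 407 ORs chosen, and 22 members were shared (56.4% and 34.9% of each). The shared part of ORs outside the cluster was not taken. With 51 and 84 cells, the overlap is a description and shows nothing particular to these members. *Olfr17* RNA was present in 28 of the 51 *tetOP2* cluster cells (54.9%), beside 55.8% of cells choosing other ORs, and reached 3 UMIs in 5.

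Genes other than ORs were compared between cluster cells and cells choosing another OR, within library. Of 12088 genes, edgeR called 36 (0.298%), 33 of them lower. *Fam19a4* was at 0 to 1.5 CPM in cluster cells and at 6.2 to 21.8 CPM in other cells, with a log2 fold change of -6.43 (adjusted p = 2.52e-07). *Reg3g* and *S100z* were lower in 6 of 6 libraries, with log2 fold changes of -1.27 and -1.46. *Cyp4b1* was higher in 4 of 6 (2.10) and the haemoglobin gene *Hba-a2* in 4 of 6 (1.27). Without cells choosing class I ORs or *Olfr17*, *S100z* was at -0.82 (adjusted p = 0.432) and *Hba-a2* at 1.27 (adjusted p = 0.0786), no longer called, *Fam19a4* was not tested, and *Reg3g* and *Cyp4b1* were called. Erythroid markers summed to 3.54 and 0.709 CPM in swap cluster cells and to 48.1 and 35.1 CPM in control cluster cells, and their part in the result was not tested. In cluster cells, sustentacular markers ran from 28.3 to 2209 CPM, B cell markers from 0 to 17.2 CPM and macrophage markers from 1.52 to 21.3 CPM. Basal markers ran from 1.18 to 26.8 CPM, beside 12926 to 24101 CPM for mature OSN markers. In swap replicate 1, sustentacular markers were at 28.3 CPM in cluster cells and 558 CPM in all cells with a chosen OR. In control replicate 2 they were at 2022 and 3005 CPM, but in *tetOP2* at 711 and 503 CPM. Cluster cells were lower in swap replicate 2 too, and higher in *gg8tTA* and control replicate 1. The part of such RNA in the 33 lower genes was not tested.

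Of the 17 zonal genes 1 was called, *Cd55*, lower with a log2 fold change of -1.11, and the list's median was -0.02 beside -0.01 for all genes. *Nqo1* had a log2 fold change of -0.45 (adjusted p = 0.00228), below the size threshold, and of -0.02 without class I and *Olfr17* cells, where 0.108% of genes were called. *Nrp2* was higher in 6 of 6 libraries (0.35, adjusted p = 0.0152), but without those cells it was at 0.23 (adjusted p = 0.479). None of the 14 OR choice factors, such as *Lhx2* and *Ldb1*, and none of the 17 signalling genes, such as *Adcy3* and *Cnga2*, was called.

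Immature OSNs (at least 10 *Gap43* UMIs and more *Gap43* than *Omp*) drew 15% and 14% of OR UMIs from the cluster in swap and 17.3% and 13.9% in control, which overlapped. In mature OSNs the shares were 14.6% and 13.4% in swap and 19.5% and 18.8% in control, which did not overlap (exact permutation p = 0.33). Over 6 libraries immature minus mature was -1.48 points (exact sign-flip p = 0.25).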

How the data were processed

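Dissociated MOE was profiled on 10x Chromium v3. The authors deposited raw UMI counts per gene and cell barcode, made with Cell Ranger (3.1.0 in the matrix header of the swap and control libraries) with introns included, on mm10 per the labels' processing notes. No normalization had been applied. The series design text speaks of sorted populations, while the methods describe dissociated epithelium.

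Barcodes below 1000 UMIs or 500 genes were dropped, and the cells with the highest simulated-doublet scores (53 to 207 per library) were removed. Pairs of libraries shared 0 to 13 barcodes. Groups came from the labels. Library sums were tested with edgeR 4.0.16 (quasi-likelihood, TMM, filterByExpr, Benjamini-Hochberg over all genes tested), library shares with exact permutation tests, and DESeq2 was run through pydeseq2 0.5.4 as an alternative. The code was tested on simulated data. Coordinates and coding sequences came from RefSeq and GENCODE on GRCm38. Intervals are 95% Clopper-Pearson, apart from the limit of 3 cells for a count of 0.

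The members and the gene lists were chosen with earlier results of these data known. Genes named are those chosen by most control cells, those with the smallest p in each direction, those with the lowest and highest dorsoventral scores, and preset markers. Others were named after their values were seen. *Olfr1213* has no GENCODE entry. Promoter and protein sequences were not used here. A part of the genotype labels is not reported here.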

Additional observations from a re-analysis of the deposited data

How the results depend on the processing

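With 2 libraries per group no exact test could pass 0.05, and receptors chosen by few cells could not be told from counting error. The swap-minus-control share of cluster cells ran from -6.70 to -6.11 points on leaving out each library, the ventral share from -31.0 to -27.4 points (but -11.8, with overlapping groups, when at least 5 cells placed a receptor), the number of different receptors from -13.3 to -9.24, thinned UMIs from -4.25 to 0.75 (0.75 without swap replicate 1), the score from -0.34 to 0.01 (0.01 without swap replicate 2) and the log2 ratio to *Olfr1263* to *Olfr1318* from 0.12 to 0.23 and to *Olfr832* to *Olfr986* from -0.66 to -0.57. With a chosen OR of at least 1 UMI the ratio to *Olfr1263* to *Olfr1318* was -0.00079. The *tetOP2* minus *gg8tTA* share was 5.13 points, and -6.14 with *Olfr17* cells kept. The correlation of score with position was 0.64 with at least 3 cells per receptor and 0.74 in control replicate 2 alone. With at least 10 cells only 2 receptors were left, which gave no value. The share of other OR UMIs from the cluster ran from 13.4 to 20.7 points, where 5 libraries cannot pass 0.05, and was 9.79 without cells choosing *Olfr1030* or *Olfr1043*. Immature minus mature ran from -1.88 to -0.80.

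Members called by UMI sums numbered 0 with edgeR and 26 with DESeq2, and the edgeR number changed on leaving out a control library, which leaves that group with 1. By cells 0 were called throughout. Stretches called numbered 0 to 3. Genes called between cluster and other cells numbered 36, 110 with no filter on low counts, 12 without class I and *Olfr17* cells, 5 with DESeq2 and 13 to 39 on leaving out a library (13 without control replicate 2). The causes were not tested. In the labels, same-numbered swap and control libraries are linked by number alone. Their deviations from the group means correlated at 0.34 over 13336 genes and 0.11 over 134 members. Sustentacular markers in cluster cells were at 28.3 and 46.1 CPM in swap and control replicate 1. In replicate 2 they were at 2209 and 2022 CPM. Whether same-numbered libraries share a batch was not tested. With the replicate number as a block 0 members were called by UMIs, 0 by cells and 3 stretches, as without it.

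Log2 fold changes that changed sign were, for UMIs of *Olfr1028*, -0.0316 with doublets kept, -0.162 over all OSN lineage cells and -0.325 to 0.475 on leaving out a library. For UMIs of *Olfr1110* they were -0.257 with doublets kept, -0.0054 with DESeq2 and -10.7 to 10.9 on leaving out a library. For cells, leaving out a library gave -0.107 to 0.587 for *Olfr1028* and -0.513 to 1.38 for *Olfr1110*. For stretches it gave -0.701 to 0.133 from *Olfr987*, -0.0251 to 0.293 from *Olfr1012*, -0.948 to 0.124 from *Olfr1087* and -1.04 to 0.0558 from *Olfr1112*. Between cluster and other cells, leaving out class I and *Olfr17* cells gave 0.226 for *Acsm4*, -0.0729 for *Ncam2*, -0.0286 for *Nfib*, -0.105 for *Nfix* and 0.0069 for *Cbx1*. In control and *gg8tTA* libraries only, *Cbx1* was at 0.0368 and *Pdlim1* at 0.0248. Leaving out a library gave -0.0685 to 0.0117 for *Cbx1*, -0.0872 to 0.0103 for *Pdlim1* and -0.497 to 0.0058 for *Rprm*.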

Other observations

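*Olfr1033* RNA was also found outside OSNs. A UMI was present in 14.5% and 15.8% of cells gated on sustentacular markers in the swap libraries and in 16.2% and 15.1% in the control libraries, against 5.41% and 8.67% of swap and 8.13% and 11.4% of control mature OSNs. In *tetOP2* and *gg8tTA* the shares were 4.91% and 4.02% of gated cells and 1.08% and 1.00% of mature OSNs.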
